A study of Mus musculus with 18 samples.

Results

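Bone-marrow-derived macrophages (BMDMs) of WT mice, grown in culture from marrow cells, were compared after 18 h with interferon-gamma and tumour necrosis factor (IFNg and TNF) and after 18 h with interferon-gamma and interleukin-1 beta (IFNg and IL1b). The comparison takes 6 of the 18 RNA sequencing libraries of the series: the 3 whose titles name IFNg with TNF, one of them written TNFa, and the 3 whose titles name IFNg with IL1b. The 3 libraries of IFNg alone are given beside them, and the other groups of the series were a control, IFNg with LPS and IFNg with hypoxia, all in WT cells at 18 h. IFNg was present in every library compared, so that below "TNF libraries" and "IL1b libraries" mean IFNg with that cytokine, and no library holds TNF or IL1b without it. The labels do not give cytokine doses, the age or sex of the mice, nor do they say that a group's libraries were separate animals or cultures. The p-values thus rest on the spread within groups over all 18 libraries, part or all of which may be technical.

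TNF and IL-1 beta are the classic pair of inflammatory cytokines, and both are known to lead to nuclear factor kappaB (NF-kappaB) and MAP kinases, through different receptor complexes. TNF binds the receptors encoded by Tnfrsf1a and Tnfrsf1b, which recruit Tradd, Ripk1 and Traf2. IL-1 alpha and IL-1 beta bind the receptor encoded by Il1r1 together with Il1rap, which recruits Myd88, Irak kinases and Traf6. IFNg acts through the kinases Jak1 and Jak2, and in macrophages it is known to act together with TNF on genes such as Nos2, the inducible nitric oxide synthase.

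The 6 libraries held 12270565 to 20952799 counts in genes. Levels are given in CPM, counts set on a common library size with TMM factors over the genes tested. The 20 genes with the most counts took 16.6 to 18.6% of the counts in TNF libraries and 11.9 to 12.9% in IL1b libraries. On the first principal component of all 18 libraries, which held 38.4% of the variance, TNF libraries lay at 92.7 to 112.3 and IL1b libraries at -28.4 to -21.0. The third TNF library stood somewhat apart from the others of its group, with correlations of log2 CPM of 0.952 and 0.955, against 0.968 between those others. The median SD of log2 CPM was 0.278 in TNF libraries and 0.205 in IL1b libraries. The cells carried macrophage markers in both groups. Csf1r, the receptor for the growth factor that sustains macrophages, had 7741, 7872 and 7654 CPM in TNF libraries and 4064, 5119 and 4501 CPM in IL1b libraries, and Adgre1, which encodes F4/80, had 1591, 1655 and 1698 CPM in TNF libraries and 2622, 3069 and 3116 CPM in IL1b libraries. In these bulk samples, fewer cells of a type and less RNA per cell cannot be told apart.

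The libraries with TNF and with IL1b differed across a large part of the transcriptome. Of 11563 genes tested with edgeR's quasi-likelihood test, 4860 (42.0%) passed an adjusted p of 0.05, of which 2418 (20.9% of the genes tested) were higher and 2442 (21.1%) lower with TNF. The change was at least 2-fold for 1215 of the higher and 1350 of the lower genes, at least 4-fold for 511 and 609, and at least 16-fold for 167 and 186. The groups did not overlap for 53.2% of the genes, 26.0% with TNF on the higher side and 27.2% with TNF on the lower side. Counts of gene list members given below stand beside the shares called over all genes tested, 20.9% higher and 21.1% lower. A list count near these shares says nothing particular about the list. The median log2 fold change over all genes tested was -0.04. Values with ± that follow a gene without a unit are log2 fold changes of TNF over IL1b with their SE. Scaling to the library totals behind the authors' RPKM values moved that median by -0.32 and the counts to 1521 higher and 3938 lower, and upper-quartile scaling moved it by -0.13 and the counts to 2008 and 3005. No gene called under TMM was called in the opposite direction under either. List counts given under the RPKM totals stand beside the 1521 higher and 3938 lower of 11563 genes, not beside the TMM shares. More lower members under those totals is thus what all genes showed.

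**Figure D1:**
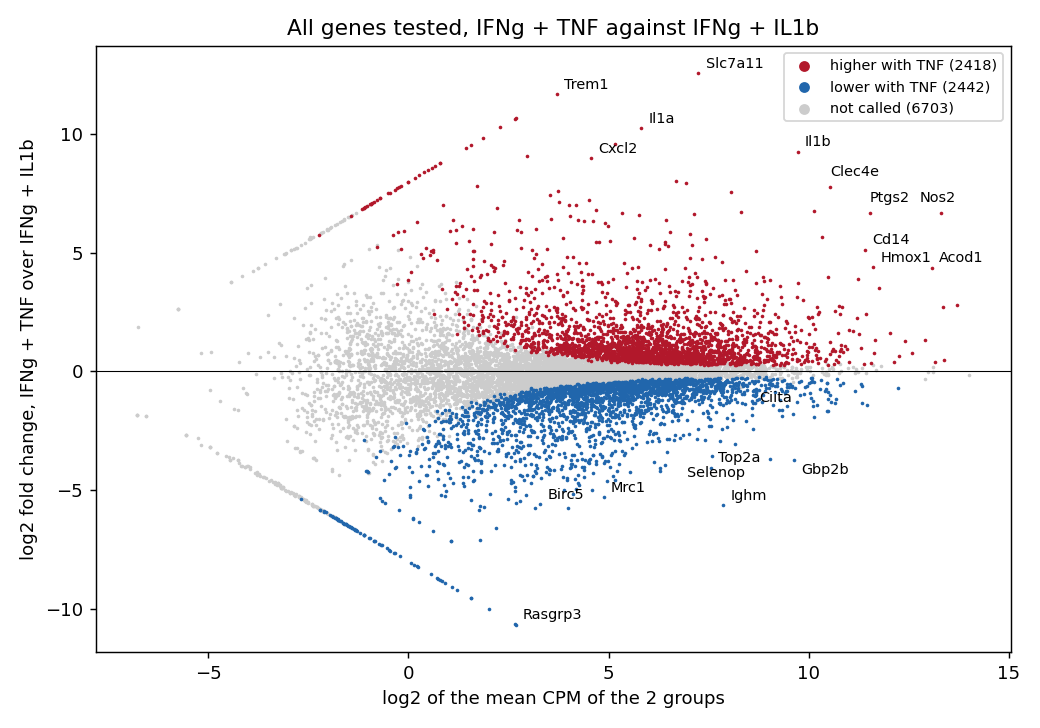
Log2 fold change of IFNg with TNF over IFNg with IL1b (vertical axis) against the log2 of the mean CPM of the groups (horizontal axis). Each point is 1 of the genes tested that had a count in these 6 libraries. Red points are the 2418 genes higher with TNF, blue points the 2442 lower and grey points those not called. The oblique lines of points at the left edge are genes with 0 counts in one group, and Slc7a11 and Rasgrp3 had the largest increase and decrease.

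The largest increases with TNF joined a cystine transporter, inflammatory receptors and IL-1 cytokines. Gene positions are given on mm10. Slc7a11 (ENSMUSG00000027737, chromosome 3, 49892526 to 50443614), which encodes the transporter subunit that brings cystine into the cell for glutathione synthesis, had 274, 345 and 292 CPM in TNF libraries, against 0.11, 0 and 0 CPM in IL1b libraries. The groups lay far apart, and the IL1b libraries held 2 counts of the gene in all against 13885 in the TNF libraries, a ratio of 7069 with a 95% counting interval of 1957 to 58378 (adjusted p = 1.09e-14). Trem1, a receptor that amplifies inflammatory signals, had 27.8, 22.2 and 28.02 CPM in TNF libraries and 0 counts in all 3 IL1b libraries, at least 406-fold higher with 3 counts over the group as the floor. That floor covers counting error only. With IFNg alone Trem1 had 0, 0.706 and 1.44 CPM, and TNF libraries were 5.22 ± 1.29 above IFNg on the log2 scale. Wnk2, a WNK family kinase, had 76.1, 66.1 and 72.3 CPM in TNF libraries and 0.0548, 0.192 and 0 CPM in IL1b libraries. Naip1, a receptor of the NLRC4 inflammasome family with near-identical neighbours that could share reads, was at least 196-fold higher with TNF. The 12 largest increases also included Tnfrsf9, Il1a, Il1b, Cxcl2, Cxcl3, Ptges and Clec4e, described with their groups below.

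The largest decreases held genes of the cell cycle, of resident macrophages and of other blood cells. Rasgrp3, an activator of Ras and Rap GTPases, had 0 counts in all 3 TNF libraries and 15.1, 13.9 and 9.404 CPM in IL1b libraries, at least 201-fold lower. Abca9, a lipid transporter of the ABC family, likewise had 0 counts with TNF, against 14.02, 12.1 and 12.05 CPM in IL1b libraries, at least 196-fold lower (adjusted p = 5.48e-14). Myh10, a nonmuscle myosin heavy chain, had 0.5, 1.12 and 0 CPM in TNF libraries and 39.9, 26.9 and 26.1 CPM in IL1b libraries. Slc9a9, an endosomal sodium/proton exchanger, had 1.67, 0.986 and 0 CPM in TNF libraries and 34.3, 29.9 and 37.6 CPM in IL1b libraries. This set and the largest increases were picked among called genes whose groups did not overlap. Their separation is thus not a result, and 53.2% of all genes tested did not overlap. The third TNF library was the lowest for each gene in this set that had any count with TNF except Etl4, whose counts with TNF all lay in the second library, and Ighm, for which the first library was the lowest. The other decreases among the 12 largest were Tcf19, Birc5, Cdc6, Esco2, Ltf, Mrc1, Etl4 and Ighm.

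The promoters of Il1b, Il6 and Slc7a11 are shown because these genes stood among the large increases and have known NF-kappaB or stress-responsive control. Each line is the 250 bases before the transcription start in RefSeq's mouse build GRCm38.p6, 5′ to 3′ on the gene's strand, with the letters of the motifs found in capitals. The windows are chr2:129371140-129371389 on the minus strand for Il1b, chr5:30012864-30013113 on the plus strand for Il6 and chr3:50443614-50443863 on the minus strand for Slc7a11.
Il1b: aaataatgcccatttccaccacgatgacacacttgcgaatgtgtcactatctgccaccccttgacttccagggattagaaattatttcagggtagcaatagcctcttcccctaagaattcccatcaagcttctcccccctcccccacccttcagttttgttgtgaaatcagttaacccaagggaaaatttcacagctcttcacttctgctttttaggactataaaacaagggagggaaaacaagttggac
Il6: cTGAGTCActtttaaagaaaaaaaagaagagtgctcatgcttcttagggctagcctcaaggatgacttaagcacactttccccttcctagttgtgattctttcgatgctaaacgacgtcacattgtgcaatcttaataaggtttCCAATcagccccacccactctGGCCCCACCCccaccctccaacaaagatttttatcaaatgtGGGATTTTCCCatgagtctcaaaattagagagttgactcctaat
Slc7a11: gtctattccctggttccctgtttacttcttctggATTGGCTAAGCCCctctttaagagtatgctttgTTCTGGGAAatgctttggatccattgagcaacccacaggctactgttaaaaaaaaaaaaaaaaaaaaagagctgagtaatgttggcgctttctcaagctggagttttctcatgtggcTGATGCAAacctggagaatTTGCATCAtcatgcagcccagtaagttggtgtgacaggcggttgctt
Motifs were searched on both strands: GGG and CC with any 5 bases between (NF-kappaB), TGACNNNGC (antioxidant response element), TTTGAA (cell cycle homology region) and TTCNNNGAA (gamma activated site), with TGANTCA (AP-1), TGATGCAA (the composite C/EBP-ATF site) and CCAAT added after the sequences were seen. The Il6 window held an AP-1 motif starting at -249, a CCAAT motif at -106 and 3 NF-kappaB matches at -85, -44 and -43, the last 2 of which overlap. The Slc7a11 window held the composite C/EBP-ATF motif at -66 and, on the other strand, at -47. It also held a gamma activated motif at -183, and a CCAAT motif at -216 that overlaps an NF-kappaB match at -213. It held no antioxidant response match. The Il1b window held none of the 7 motifs, which says only that these letters are not in this window. A match is a description of letters. The NF-kappaB letters stood in 61.7% of the 9181 promoters of tested genes, in 64.9% of those of genes higher with TNF and in 62.3% of those of genes lower with TNF, while the composite C/EBP-ATF letters stood in 0.588%, 0.776% and 0.678% of the same sets.

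The genes for the IL-1 cytokines were themselves far higher with TNF than with IL1b. Of 7 measured IL-1 family ligands and antagonists of 9 in the list, 6 were higher and 0 lower, with a median log2 fold change of 6.44 against -0.04 over all genes. Il1b (ENSMUSG00000027398, chromosome 2, 129364570 to 129371139) had 1865, 1555 and 1643 CPM in TNF libraries, against 1.81, 4.66 and 1.71 CPM in IL1b libraries, a 615-fold difference (log2 fold change 9.26 ± 0.46 (SE), adjusted p = 1.43e-10). Its level with IL1b was close to that of IFNg alone, 1.36, 2.65 and 2.73 CPM. Il1a, which encodes the second agonist, had 115, 117 and 106 CPM in TNF libraries and 0.164, 0.0639 and 0 CPM in IL1b libraries (log2 fold change 10.25 ± 0.77). Il1rn, the receptor antagonist that blocks both agonists, had 603, 1037 and 763 CPM in TNF libraries and 16.98, 26.4 and 28.9 CPM in IL1b libraries, 33.3-fold higher with TNF. The agonists and their antagonist thus moved in the same direction, with no overlap between the groups for any of them.

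Il1f9, the gene of IL-36 gamma, had 21.1, 27.5 and 21.1 CPM in TNF libraries and 0.0548, 0.575 and 0.155 CPM in IL1b libraries. Il1f6, the gene of IL-36 alpha, had 2.56, 1.58 and 0.785 CPM with TNF and 0 counts with IL1b, at least 27.2-fold higher, a call that was lost with DESeq2's test (adjusted p = 0.171) and under 4 of the 6 omissions of a library. Il18, a cytokine activated at the protein level by caspase-1, had 31.8, 27.3 and 35.4 CPM in TNF libraries and 18.2, 12.6 and 12.5 CPM in IL1b libraries (log2 fold change 1.12 ± 0.27). Il18bp, the soluble decoy of IL-18, had 672 ± 103 CPM in TNF libraries and 569 ± 72.4 CPM in IL1b libraries (SD, n = 3 each), and this difference did not pass the test (adjusted p = 0.182).

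The gene of the signalling receptor for IL-1 had few or no counts in IL1b libraries and in IFNg libraries at the time of sampling. The count table misses some genes that every cell uses, so low counts do not show that a gene was silent. Il1r1 (ENSMUSG00000026072, chromosome 1, 40225080 to 40317257) had 1.28, 2.56 and 4.87 CPM in TNF libraries and 0.219, 0 and 0 CPM in IL1b libraries, 4 counts in all, and 0 counts in the 3 libraries of IFNg alone. The increase passed the test (adjusted p = 0.0247) and was lost when the third TNF, the second IL1b or the third IL1b library was left out (adjusted p = 0.0775, 0.0914 and 0.0852). Il1r2, the decoy receptor that binds IL-1 without signalling, had 12.2, 14.7 and 15.5 CPM in TNF libraries and 0.931, 2.62 and 0.0777 CPM in IL1b libraries (adjusted p = 0.000859). Il1rap, the shared second chain, had 3.72, 6.84 and 2.51 CPM in TNF libraries and 7.94, 5.62 and 8.55 CPM in IL1b libraries, groups that overlapped and did not pass the test (adjusted p = 0.143). Sigirr, Il18rap, Il1rl1 and Il1rl2 did not pass either. In all, 2 of 7 measured receptor genes were higher and 0 lower (2 and 1 under the RPKM totals). The higher share, 28.6%, stood beside the 20.9% of all genes tested.

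Downstream of the IL-1 receptor, 5 of 13 measured kinases and adaptors were higher and 3 lower (4 and 5 under the RPKM totals). The lower share, 23.1%, was near the 21.1% of all genes tested, and the higher share, 38.5%, stood beside 20.9%. Irak2, a kinase of the Myddosome complex, had 343, 411 and 323 CPM in TNF libraries and 83.7, 93.2 and 93.2 CPM in IL1b libraries, and Irak3, the inhibitory family member known from macrophages, had 97.2, 99.6 and 117 CPM in TNF libraries and 24.4, 23.4 and 40.7 CPM in IL1b libraries. Traf6, the ubiquitin ligase of this pathway, had 85.2 ± 14.8 CPM with TNF and 33.2 ± 8.12 CPM with IL1b (SD, n = 3 each; log2 fold change 1.36 ± 0.24). These genes were separated between the groups. Peli2, a ubiquitin ligase that acts on Irak kinases, was lower, with 8.14 ± 3.403 CPM in TNF libraries and 15.3 ± 1.87 CPM in IL1b libraries (adjusted p = 0.00845), a call lost without the third TNF library (adjusted p = 0.0639). Myd88, the adaptor of IL-1 and Toll-like receptors, was slightly lower (119 ± 3.85 CPM in TNF libraries and 149.9 ± 13.9 CPM in IL1b libraries, adjusted p = 0.0111), a call lost without the third IL1b library (adjusted p = 0.0804).

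Among TNF superfamily ligands, Tnf itself and Tnfsf9 were higher with TNF, and 4 ligands of lymphocyte receptors were lower, of 12 measured of 17. The shares, 16.7% and 33.3%, stood beside 20.9% and 21.1% of all genes tested. Tnf (ENSMUSG00000024401, chromosome 17, 35199381 to 35202007) had 206, 168 and 103 CPM in TNF libraries and 40.1, 37.2 and 40.8 CPM in IL1b libraries, against 29.4, 26.5 and 23.4 CPM with IFNg alone. The third TNF library was the lowest of its group and still above every IL1b library (4.04-fold, log2 fold change 2.01 ± 0.21, adjusted p = 1.52e-08). Tnfsf9, the ligand of 4-1BB, had 39.96, 29.6 and 36.7 CPM in TNF libraries and 4.600, 7.09 and 4.74 CPM in IL1b libraries. Its receptor gene Tnfrsf9 also stood among the largest increases, with 14.7, 13.3 and 10.4 CPM in TNF libraries and 0 counts in all IL1b libraries, at least 204-fold higher. Tnfsf13b, which encodes the B cell survival factor BAFF, was lower with 9.78, 8.28 and 8.24 CPM in TNF libraries and 30.2, 34.7 and 26.7 CPM in IL1b libraries (adjusted p = 8.45e-08). Tnfsf13, which encodes APRIL, and Tnfsf14, which encodes LIGHT, were lower with log2 fold changes of -2.50 ± 0.62 and -3.03 ± 0.58. Tnfsf8, the CD30 ligand, had 0 counts in all TNF libraries and 2.79, 2.55 and 1.79 CPM in IL1b libraries, at least 37.3-fold lower. Tnfsf4, Tnfsf10, Tnfsf12, Tnfsf15, Lta and Ltb did not pass the test. Lta, which encodes lymphotoxin alpha, averaged 2.23 ± 1.25 CPM with TNF and 0.104 ± 0.179 CPM with IL1b (adjusted p = 0.0728).

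Of 17 measured TNF superfamily receptors, 7 were higher and 2 lower with TNF (6 and 4 under the RPKM totals). Tnfrsf1b, which encodes the inducible TNF receptor TNFR2, had 794, 752 and 965 CPM in TNF libraries and 163, 195 and 242 CPM in IL1b libraries (log2 fold change 2.07 ± 0.18). Tnfrsf1a, which encodes TNFR1 with its death domain, had 669, 583 and 663 CPM in TNF libraries and 406, 470.3 and 489.6 CPM in IL1b libraries, a smaller difference (0.49 ± 0.13) that was lost under the RPKM totals (adjusted p = 0.277). Both TNF receptor genes thus had many counts in IL1b libraries and Il1r1 had few. Whether this bears on the difference between the groups was not tested. Cd40, the costimulatory receptor, had 516, 427 and 455 CPM in TNF libraries and 72.3, 66.3 and 51.3 CPM in IL1b libraries, and Fas, the death receptor, had 88.9, 95.04 and 109.6 CPM in TNF libraries and 20.5, 20.05 and 20.6 CPM in IL1b libraries. Tnfrsf23 and Tnfrsf26, 2 further receptor genes of the family, were higher with log2 fold changes of 2.40 ± 0.33 and 2.21 ± 0.32. Tnfrsf11a, which encodes the osteoclast receptor RANK, and Tnfrsf21, which encodes DR6, were lower, Tnfrsf11a with 27.5, 34.5 and 25.7 CPM in TNF libraries and 58.9, 59.8 and 77.8 CPM in IL1b libraries. Receptors not called were Ltbr, Tnfrsf4, Tnfrsf10b, Tnfrsf12a, Tnfrsf13b, Tnfrsf14, Tnfrsf18 and Tnfrsf22.

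Among the adaptors and complexes of TNF signalling, inhibitors such as Tnfaip3 and Cflar were higher with TNF. Of 25 measured adaptors and complex members, 14 were higher and 3 lower (8 and 5 under the RPKM totals), with a median log2 fold change of 0.50. Traf1, an NF-kappaB-induced adaptor, had 503, 369.9 and 472 CPM in TNF libraries and 29.3, 29.2 and 35.1 CPM in IL1b libraries (adjusted p = 5.65e-09). Tnfaip3, which encodes the ubiquitin-editing inhibitor A20, had 453, 500.3 and 416 CPM in TNF libraries and 52.6, 56.3 and 58.4 CPM in IL1b libraries. Tnip1, which binds A20, Cflar, which inhibits caspase-8, and Birc3, which encodes cIAP2, were higher with log2 fold changes of 2.34 ± 0.13, 2.23 ± 0.16 and 2.09 ± 0.14. Otulin, a deubiquitinase of linear chains, was lower with 29.5, 26.2 and 23.4 CPM in TNF libraries and 60.5, 64.4 and 70.96 CPM in IL1b libraries. The death-complex genes Ripk1, Fadd and Tradd did not pass the test, with log2 fold changes of 0.12 ± 0.12, -0.05 ± 0.50 and 0.46 ± 0.28.

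NF-kappaB subunits and inhibitors followed the same side. Of 16 measured members, 11 were higher and 1 lower (8 and 2 under the RPKM totals), with a median of 0.99. Nfkbie, which encodes the inhibitor IkappaB epsilon, had 311, 291 and 334 CPM in TNF libraries and 9.86, 11.2 and 13.7 CPM in IL1b libraries (log2 fold change 4.75 ± 0.30). Nfkbia, which encodes IkappaB alpha, had 469, 346 and 420.0 CPM in TNF libraries and 58.2, 55.9 and 56.3 CPM in IL1b libraries, and Relb, a subunit of the noncanonical pathway, had 145, 142 and 138 CPM in TNF libraries and 24.97, 20.6 and 20.8 CPM in IL1b libraries. Among the subunits, Nfkb2 and Rela were higher with log2 fold changes of 2.38 ± 0.14 and 1.76 ± 0.13. Nfkb1 was higher with a log2 fold change of 0.31 ± 0.10, a call lost under upper-quartile scaling and under the RPKM totals (log2 fold change -0.01), and Rel did not pass the test (0.29 ± 0.19, adjusted p = 0.24). Map3k8, the kinase Tpl2, was the member lower with TNF, with 19.5, 9.99 and 4.32 CPM in TNF libraries and 38.99, 26.9 and 29.5 CPM in IL1b libraries. NF-kappaB letters stood in 10 of the 11 promoters of this list that RefSeq's table holds, beside 61.7% of all promoters of tested genes. In lists described below, they stood in 70% of Nrf2 list promoters, 69.23% of mitosis promoters and 61.29% of DNA replication promoters. The mitosis and DNA replication lists were lower with TNF. Differences between these shares were not tested.

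**Figure D2:**
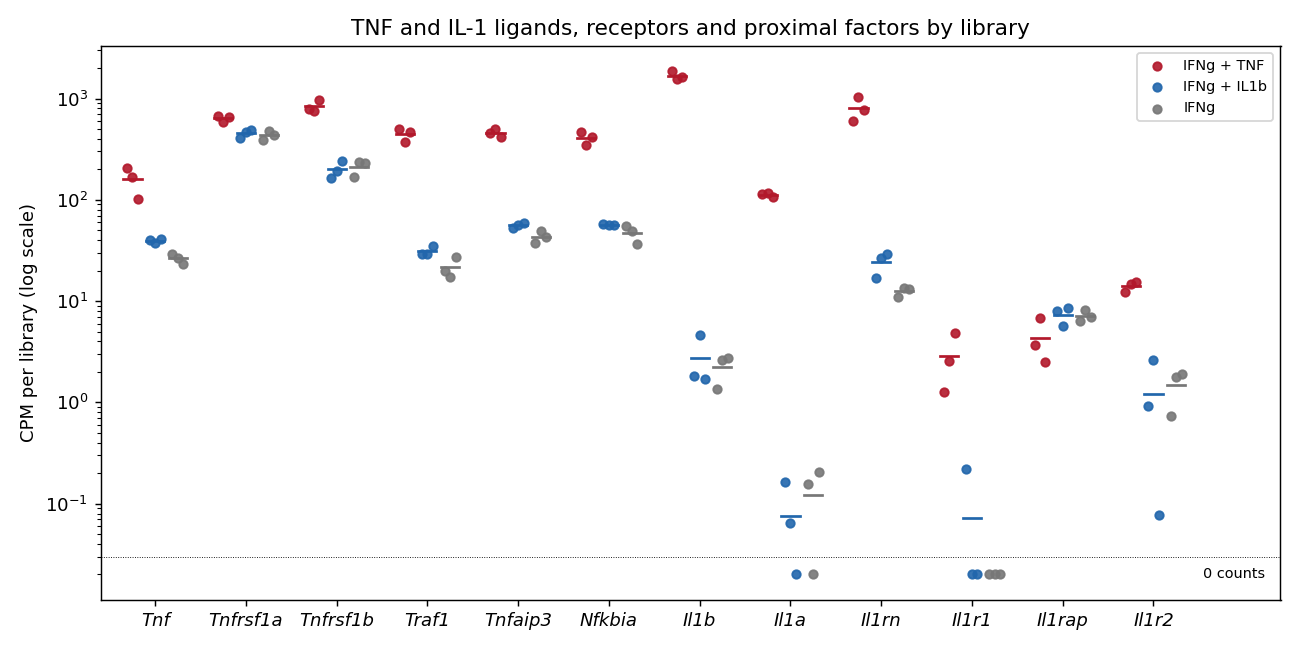
CPM per library on a log scale (vertical axis) for 12 genes of TNF and IL-1 signalling (horizontal axis), with 3 points a group in the order IFNg with TNF (red), IFNg with IL1b (blue) and IFNg (grey), and a short line at the mean. Points below the dotted line had 0 counts. Red points lie above blue ones for every gene shown except Il1rap.

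More cytokine genes were higher than lower with TNF. Of 17 measured interleukins and growth factors, 11 were higher and 2 lower, with a median of 1.31. Il12b, the shared p40 chain of IL-12 and IL-23, had 5.95, 10.2 and 5.57 CPM in TNF libraries and 0 counts in all IL1b libraries, at least 113-fold higher. Inhba, the activin A subunit, had 73.9, 89.5 and 76.1 CPM in TNF libraries and 0.986, 0 and 1.399 CPM in IL1b libraries. Il6 (ENSMUSG00000025746, chromosome 5, 30013114 to 30019981) had 23.1, 12.8 and 16.9 CPM in TNF libraries and 0.712, 0.128 and 0.855 CPM in IL1b libraries (log2 fold change 4.95 ± 0.76, adjusted p = 1.16e-05). The direction was opposite for Il10, the anti-inflammatory cytokine, with 0.111, 0 and 0.471 CPM in TNF libraries and 3.83, 5.43 and 5.52 CPM in IL1b libraries (log2 fold change -4.70 ± 1.02). Il16, a CD4 ligand cytokine, was also lower (-3.35 ± 0.23).

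Of 20 measured chemokines, 8 were higher and 5 lower (7 and 7 under the RPKM totals). These shares, 40% and 25%, stood beside 20.9% and 21.1% of all genes tested. Cxcl2, a ligand of the neutrophil receptor Cxcr2, had 59.3, 44.2 and 37.8 CPM in TNF libraries and 0.11, 0 and 0.155 CPM in IL1b libraries, and the neighbouring Cxcl3 had 12.3, 19.98 and 14.6 CPM in TNF libraries and 1 count in the IL1b libraries, a ratio of 724 with a 95% counting interval of 129.5 to 28635. Ccl5, a T cell and monocyte attractant, had 2547, 2824 and 2675 CPM in TNF libraries and 162, 153 and 198 CPM in IL1b libraries (adjusted p = 3.96e-17). The interferon-induced Cxcr3 ligands Cxcl9, Cxcl10 and Cxcl11 were higher with log2 fold changes of 2.40 ± 0.19, 2.69 ± 0.22 and 3.59 ± 0.23. Ccl6 was lower with 3.89, 7.099 and 7.46 CPM in TNF libraries and 51.4, 45.2 and 53.5 CPM in IL1b libraries, Ccl3 and Ccl9 were lower with log2 fold changes of -1.93 ± 0.32 and -1.57 ± 0.27, and Ccl2 did not pass the test (0.31 ± 0.38, adjusted p = 0.55). Among 20 measured receptors for such attractants, 9 were higher (45%) and 4 lower (20%), the lower share being near that of all genes tested. Fpr2 and Fpr1, the formyl peptide receptors, rose with log2 fold changes of 4.36 ± 0.29 and 3.77 ± 0.45, and Ccr7, the receptor for lymph node homing, rose with a log2 fold change of 4.21 ± 0.60. Ccr2, the monocyte receptor, had 22.9, 28.9 and 38.7 CPM in TNF libraries and 369, 331 and 369.8 CPM in IL1b libraries, and Cxcr3 was also lower (-4.56 ± 0.53).

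The inducible nitric oxide synthase and the transporter of its substrate arginine were higher with TNF. Nos2 (ENSMUSG00000020826, chromosome 11, 78920787 to 78960254) had 18055, 21073 and 21178 CPM in TNF libraries and 129, 214 and 249.9 CPM in IL1b libraries, against 19.02, 22.1 and 33.6 CPM with IFNg alone. The TNF value was 102 times that of IL1b (log2 fold change 6.67 ± 0.26, adjusted p = 1.12e-13). Slc7a2, the arginine transporter, had 715, 552 and 626 CPM in TNF libraries and 5.15, 5.87 and 6.92 CPM in IL1b libraries, and Arg2, the mitochondrial arginase that uses the same substrate, had 63.1, 46.9 and 42.1 CPM in TNF libraries and 0.383, 0.511 and 0.466 CPM in IL1b libraries. Ass1, which recycles citrulline to arginine, and Gch1, which makes the cofactor tetrahydrobiopterin, rose with log2 fold changes of 3.11 ± 0.30 and 2.09 ± 0.28. In all, 7 of 12 measured genes of arginine and nitric oxide metabolism were higher and 2 lower (5 and 3 under the RPKM totals). Arg1, the arginase of alternative activation, averaged 14.7 ± 5.77 CPM with TNF and 9.04 ± 3.22 CPM with IL1b (SD, n = 3 each) and did not pass the test (adjusted p = 0.0562), although it was called higher under 6 of 14 alternatives. Acod1, which makes the antimicrobial metabolite itaconate from cis-aconitate, had 16483, 16719 and 16249 CPM in TNF libraries and 638, 797 and 962 CPM in IL1b libraries (log2 fold change 4.37 ± 0.15).

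Prostaglandin synthesis differed enzyme by enzyme. Ptgs2, the inducible cyclooxygenase, had 5311, 6359 and 5871 CPM in TNF libraries and 47.3, 52.1 and 73.8 CPM in IL1b libraries (log2 fold change 6.67 ± 0.19, adjusted p = 4.62e-18). Ptgs1, the constitutive cyclooxygenase, had 0.222, 0.197 and 3.297 CPM in TNF libraries and 30.5, 41.5 and 33.03 CPM in IL1b libraries (-4.95 ± 0.58), so that the enzymes of the pair moved in opposite directions. Ptges, the inducible synthase of prostaglandin E2, had 207, 214 and 199 CPM in TNF libraries and 0.767, 0.639 and 1.01 CPM in IL1b libraries. Hpgd, which degrades prostaglandins, had 0.333, 0 and 0 CPM in TNF libraries and 7.06, 6.39 and 3.96 CPM in IL1b libraries, Hpgds, the prostaglandin D2 synthase, was lower with a log2 fold change of -3.36 ± 0.21, and Alox5, the first enzyme of leukotriene synthesis, of -4.22 ± 0.79. Counted together, 3 of 12 measured genes were higher and 6 lower. The higher share, 25%, was near the 20.9% of all genes tested.

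Of 24 measured Toll-like and C-type lectin receptors, 8 were higher and 12 lower. Clec4e, the receptor Mincle for mycobacterial glycolipids, had 3230.0, 2716 and 2922 CPM in TNF libraries and 13.9, 12.2 and 14.2 CPM in IL1b libraries (adjusted p = 4.49e-17). Its neighbours Clec4n, which encodes Dectin-2, and Clec4d rose with log2 fold changes of 7.55 ± 0.50 and 3.73 ± 0.14, and reads could be shared among these related genes. Cd14, the lipopolysaccharide co-receptor, had 5049, 5877 and 5037 CPM in TNF libraries and 145, 159.7 and 149 CPM in IL1b libraries. Among the endosomal receptors for nucleic acids, Tlr9 was lower and had 202, 351 and 271 CPM in TNF libraries and 802, 1173 and 1089 CPM in IL1b libraries, and Tlr7 and Tlr8 had log2 fold changes of -1.38 ± 0.19 and -2.07 ± 0.19. Tlr2, which senses lipoproteins at the surface, rose with a log2 fold change of 1.28 ± 0.12, whereas Tlr4 was lower, with 158, 185 and 192 CPM in TNF libraries and 310.1, 388 and 369 CPM in IL1b libraries (adjusted p = 6.74e-06). Mrc1, the mannose receptor, had 1.83, 2.04 and 0.235 CPM in TNF libraries and 70.4, 46.4 and 55.03 CPM in IL1b libraries.

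Genes of cystine uptake, glutathione and the Nrf2 response were higher almost throughout, with 21 of 23 measured members higher and 0 lower, a median log2 fold change of 2.14 and 20 and 1 under the RPKM totals. Gclm, the modifier subunit of the enzyme that starts glutathione synthesis, had 526, 471 and 581 CPM in TNF libraries and 44.5, 43.5 and 57.7 CPM in IL1b libraries. Srxn1, which repairs peroxiredoxins, rose with a log2 fold change of 3.90 ± 0.31, Gsta3, a glutathione transferase, of 6.02 ± 1.43 and Txnrd1, thioredoxin reductase, of 3.04 ± 0.14. Prdx1, a peroxiredoxin, had 6687, 6137 and 6249 CPM in TNF libraries and 548, 563 and 555 CPM in IL1b libraries (adjusted p = 4.36e-18). Tkt and Keap1 were the members not called, with log2 fold changes of 0.03 ± 0.13 and 0.31 ± 0.14, and Tkt was the member lower under the RPKM totals. The antioxidant response letters stood in 6 of the 20 promoters of this list in RefSeq's table (30%), beside 11.98% of promoters of tested genes. They stood in 13.24% of promoters of genes higher with TNF and 11.85% of those lower. In the mitosis and DNA replication lists, described below and lower with TNF, the shares were 19.23% and 19.35%. These shares were not tested. Hmox1, heme oxygenase, had 6451, 5888 and 5569.9 CPM in TNF libraries and 259, 321 and 274 CPM in IL1b libraries, and Fth1, the ferritin heavy chain that stores the released iron, had 20231, 20784 and 29639.9 CPM in TNF libraries and 2848, 3113 and 4223 CPM in IL1b libraries. Of 15 measured heme and iron genes, 8 were higher and 3 lower, and the lower share, 20%, was near the 21.1% of all genes tested. The lower ones were Cd163 (-3.81 ± 0.61), the receptor for haemoglobin with haptoglobin, Lcn2 (-1.84 ± 0.42), a siderophore-binding protein, and Blvra (-0.89 ± 0.14), biliverdin reductase A.

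The hypoxia response list was higher with TNF, although both groups were labelled with a cytokine only and not with hypoxia. Of 22 measured members, 19 were higher and 0 lower, with a median log2 fold change of 3.80. Egln3, an oxygen-sensing prolyl hydroxylase induced by HIF, had 38.7, 22.7 and 50.9 CPM in TNF libraries and 0.383, 0.894 and 0 CPM in IL1b libraries, and Hif1a, the factor itself, had 1489, 1861 and 1659 CPM in TNF libraries and 305, 349 and 382 CPM in IL1b libraries (log2 fold change 2.27 ± 0.11). Vegfa, the endothelial growth factor, rose with a log2 fold change of 3.81 ± 0.23 and Ak4, a mitochondrial adenylate kinase, of 5.87 ± 0.84. Members not called were Car9, Epas1 and Pdk1, and Car9, a carbonic anhydrase often used as a hypoxia marker, averaged 3.98 ± 1.42 CPM with TNF and 3.95 ± 1.19 CPM with IL1b (SD, n = 3 each).

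Glucose uptake and glycolysis went the same way, with 15 of 24 measured genes higher and 3 lower and a median of 1.23. Slc16a3, the lactate exporter, had 1724, 1527 and 1500.3 CPM in TNF libraries and 119, 136 and 106 CPM in IL1b libraries, and Slc2a1, the glucose transporter GLUT1, had 1198, 1123 and 1106 CPM in TNF libraries and 75.96, 98.97 and 110.3 CPM in IL1b libraries. Hk2, hexokinase 2, rose with a log2 fold change of 2.40 ± 0.13, Pfkl of 2.33 ± 0.22 and Ldha of 1.69 ± 0.12. Within the phosphofructokinases the muscle isoform Pfkm was lower, with 27.4, 28.1 and 21.04 CPM in TNF libraries and 67.6, 57.9 and 50.6 CPM in IL1b libraries. Gapdh and Pgam1, glycolytic enzymes that every cell uses, held 9 and 6 counts over the TNF libraries and 0 and 1 over the IL1b libraries and were not tested, so the count table misses some genes, and a count of 0 in all groups does not show that a gene was silent.

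Respiratory chain genes were lower or not called. Of 52 measured genes of the respiratory chain and ATP synthase, 0 were higher and 19 lower, with a median of -0.36, and 36 were lower under the RPKM totals. Cycs, cytochrome c, had 0 counts in all 3 groups and was not tested. Among the lower genes, Ndufs8, a complex I subunit, had 40.3, 36.9 and 30.2 CPM in TNF libraries and 82.6, 68.9 and 67.7 CPM in IL1b libraries. Ndufa12 and Ndufb5 had log2 fold changes of -1.73 ± 0.40 and -0.80 ± 0.14, beside a median of -1.12 over all genes called lower. In the list of itaconate synthesis and the citric acid cycle, 3 of 25 were higher and 12 lower (3 and 21 under the RPKM totals). Idh2 had 7.17, 9.66 and 6.36 CPM in TNF libraries and 43.4, 34.7 and 37.5 CPM in IL1b libraries, and Idh3a and Fh1 had log2 fold changes of -1.70 ± 0.22 and -1.55 ± 0.13. Besides Acod1, the higher members were Pcx, pyruvate carboxylase (2.78 ± 0.29), and Slc25a1, the citrate exporter (0.92 ± 0.14).

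Interferon-induced genes, in cells that all received IFNg, had list medians of 0.34 and 0.52. Of 20 measured guanylate-binding proteins and immunity-related GTPases, 10 were higher and 3 lower (6 and 5 under the RPKM totals), and near-identical members of this family could share reads. Gbp5, an inflammasome-promoting member, had 3047, 3349 and 3081 CPM in TNF libraries and 842, 896 and 1072 CPM in IL1b libraries, and Gbp4 rose with a log2 fold change of 1.71 ± 0.14. Gbp2b, formerly Gbp1, went the other way by a wide margin, with 94.6, 131 and 109 CPM in TNF libraries and 1587, 1425 and 1413 CPM in IL1b libraries (log2 fold change -3.73 ± 0.17, adjusted p = 1.82e-14), against 1963, 1898 and 1963 CPM with IFNg alone. Among type I interferon-stimulated genes, 19 of 35 were higher and 2 lower (12 and 5 under the RPKM totals). Oasl1, a regulator of Irf7 translation, had 1364, 1611 and 1557 CPM in TNF libraries and 145, 181 and 190.3 CPM in IL1b libraries, and Rsad2, which encodes the antiviral enzyme viperin, rose with a log2 fold change of 2.40 ± 0.16. Ifit3b and Zbp1 were lower (-0.99 ± 0.28 and -0.42 ± 0.10).

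Of 25 JAK, STAT and IRF genes, 16 were higher and 2 lower (10 and 6 under the RPKM totals). Cish, a feedback inhibitor of cytokine receptors, had 48.3, 58.6 and 43.4 CPM in TNF libraries and 1.095, 1.28 and 1.01 CPM in IL1b libraries, and Socs3, another such inhibitor, had 106, 108 and 85.8 CPM in TNF libraries and 12.9, 11.3 and 12.4 CPM in IL1b libraries. Stat4, the factor of IL-12 signalling, rose with a log2 fold change of 3.20 ± 0.37. Ifngr1, the ligand-binding chain of the IFNg receptor, was lower with 107, 138 and 111 CPM in TNF libraries and 241, 247 and 249 CPM in IL1b libraries, while Ifngr2, its partner chain, was higher (log2 fold change 0.82 ± 0.10). Stat5a was the other lower member (-1.27 ± 0.21).

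Antigen presentation was split. In MHC class II, 3 of 13 genes were higher and 3 lower, shares near the 20.9% and 21.1% of all genes tested, with a median of 0.02 (1 and 5 under the RPKM totals, with a median of -0.31). Ciita, the transactivator of the class II genes, had 200.1, 179 and 211 CPM in TNF libraries and 598, 575 and 539 CPM in IL1b libraries (log2 fold change -1.54 ± 0.13), and H2-DMa, a peptide-loading chaperone, was lower with a log2 fold change of -0.81 ± 0.12. The structural genes H2-Aa and H2-Eb1 did not pass the test (-0.07 ± 0.19 and 0.02 ± 0.13; H2-Eb1 was called lower under the RPKM totals), while H2-Ab1 was higher with a log2 fold change of 0.53 ± 0.14, a call lost under the RPKM totals (adjusted p = 0.235). For MHC class I and peptide loading, 11 of 23 were higher and 3 lower, with a median of 0.37. Under the RPKM totals 5 were higher and 8 lower, with a median of 0.04. These counts stand beside 1521 higher and 3938 lower of all 11563 genes under the same totals. H2-Q6, H2-Q7 and H2-Q4, nonclassical genes whose near-identical copies could share reads, rose with log2 fold changes of 2.52 ± 0.20, 2.41 ± 0.28 and 1.61 ± 0.17.

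Among checkpoint and costimulatory genes, 9 of 18 were higher and 3 lower (8 and 5 under the RPKM totals). Cd274, which encodes PD-L1, had 1987, 2403 and 1846 CPM in TNF libraries and 387, 370.0 and 349 CPM in IL1b libraries, and Pvr, the ligand of TIGIT and DNAM-1, had 141, 144 and 141 CPM in TNF libraries and 10.8, 17.1 and 15.5 CPM in IL1b libraries. Slamf1, a homotypic receptor of activated leukocytes, had 10.2, 9.92 and 9.34 CPM in TNF libraries and 0 counts with IL1b, at least 154-fold higher, a call lost with DESeq2's test (adjusted p = 0.0998). Icosl, Vsir, which encodes VISTA, and Cd200r1 were lower, with 8.503, 6.24 and 6.51 CPM in TNF libraries and 37.6, 25.5 and 30.3 CPM in IL1b libraries for Icosl and a log2 fold change of -1.99 ± 0.12 for Vsir.

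Genes of resident and alternatively activated macrophages were mostly lower with TNF, 14 of 26 measured against 6 higher, with a median of -0.77. The higher share, 23.1%, was near the 20.9% of all genes tested. Besides Mrc1, Pparg, the nuclear receptor of lipid metabolism and alternative activation, had 3.67, 5.98 and 12.5 CPM in TNF libraries and 62.9, 73.05 and 96.6 CPM in IL1b libraries. Cd163 had 0, 0.592 and 0.392 CPM in TNF libraries and 4.55, 5.56 and 3.26 CPM in IL1b libraries, and Trem2, a lipid-sensing receptor, had a log2 fold change of -2.44 ± 0.17. Mertk, a receptor for apoptotic cells, went against the majority with 465, 458 and 369 CPM in TNF libraries and 102, 84.2 and 87.5 CPM in IL1b libraries, as did Klf4 (2.58 ± 0.20) and Cd36 (1.25 ± 0.11). Of 19 measured Fc receptor and complement genes, 4 were higher (21.1%, near the share of all genes tested) and 11 lower (57.9%). The C1q chains C1qa, C1qb and C1qc had log2 fold changes of -1.81 ± 0.13, -1.40 ± 0.15 and -1.67 ± 0.13. C3, the central component, was higher with 15134, 20006 and 19078 CPM in TNF libraries and 2124, 2888 and 3294 CPM in IL1b libraries.

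In lipid handling, 13 of 26 measured genes were higher and 7 lower, shares of 50% and 26.9% beside 20.9% and 21.1% of all genes tested. Hilpda, a lipid droplet inhibitor of adipose triglyceride lipase, had 60.9, 70.1 and 56.4 CPM in TNF libraries and 0.548, 1.15 and 1.01 CPM in IL1b libraries, and Acsl1, which activates long-chain fatty acids, had 4046, 5019 and 4367 CPM in TNF libraries and 264, 306 and 328 CPM in IL1b libraries. Cyp27a1, the sterol 27-hydroxylase, was lower with 2.89, 2.69 and 6.28 CPM in TNF libraries and 69.00, 32.4 and 33.7 CPM in IL1b libraries, as was Scarb1 (-1.61 ± 0.13). Of 22 measured cholesterol synthesis genes 3 were higher (13.6%) and 4 lower (18.2%), beside the same shares of all genes (3 and 9 under the RPKM totals). Dhcr7, the last reductase of the pathway, was lower with a log2 fold change of -2.54 ± 0.22.

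Cell cycle genes were lower with TNF. Of 34 measured mitosis genes, 0 were higher and 33 lower, with a median log2 fold change of -3.71, and of 38 DNA replication genes 0 were higher and 31 lower, with a median of -2.07. Birc5, which encodes survivin, had 0.167, 0.986 and 0 CPM in TNF libraries and 24.3, 18.9 and 14.5 CPM in IL1b libraries (log2 fold change -5.59 ± 0.51, adjusted p = 6.28e-09). Top2a, the topoisomerase of dividing cells, had 23.2, 25.2 and 15.3 CPM in TNF libraries and 380.5, 369 and 320.0 CPM in IL1b libraries, and Plk1, the mitotic kinase, had 1.89, 1.12 and 0.785 CPM in TNF libraries and 31.8, 33.8 and 23.9 CPM in IL1b libraries. The third TNF library was the lowest for each of these 3 genes. Cdc6, which loads the replicative helicase, had 0.333, 0.394 and 0 CPM in TNF libraries and 11.9, 12.1 and 8.86 CPM in IL1b libraries, and Mcm6, a helicase subunit, had 21.2, 20.97 and 23.2 CPM in TNF libraries and 128, 158 and 177 CPM in IL1b libraries. Levels with IFNg alone were 30.4, 20.4 and 21.5 CPM for Birc5 and 459, 456 and 369.7 CPM for Top2a. The G1/S regulators E2f1 and Ccne1 did not pass the test, and Ccne1, cyclin E1, averaged 41.2 ± 13.05 CPM with TNF and 40.5 ± 4.35 CPM with IL1b (SD, n = 3 each).

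The promoters of Birc5 and Plk1 are shown as those of named mitosis genes, 250 bases before the start in GRCm38.p6 at chr11:117848987-117849236 and chr7:122159185-122159434, both on the plus strand, with motif letters in capitals.
Birc5: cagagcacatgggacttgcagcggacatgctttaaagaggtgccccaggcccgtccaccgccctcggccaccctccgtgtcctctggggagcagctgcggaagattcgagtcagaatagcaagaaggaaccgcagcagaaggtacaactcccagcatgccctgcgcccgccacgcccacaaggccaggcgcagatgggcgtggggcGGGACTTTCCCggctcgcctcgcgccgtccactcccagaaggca
Plk1: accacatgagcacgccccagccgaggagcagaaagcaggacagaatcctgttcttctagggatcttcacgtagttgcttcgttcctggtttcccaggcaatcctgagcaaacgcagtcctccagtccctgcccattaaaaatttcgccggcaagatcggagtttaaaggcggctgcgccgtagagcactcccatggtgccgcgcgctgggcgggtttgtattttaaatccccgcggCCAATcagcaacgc
The Birc5 window held overlapping NF-kappaB matches at -44 and -43 and no CCAAT motif, and the Plk1 window held a CCAAT motif at -14. Neither window held the cell cycle homology letters. The CCAAT letters stood in 20 of the 26 mitosis promoters (76.92%) and 19 of the 31 DNA replication promoters (61.29%) in RefSeq's table, beside 36.74% of promoters of tested genes. The cell cycle homology letters TTTGAA stood in 8 of the 26 mitosis promoters (30.77%), beside 10.39% of promoters of tested genes. No test was made of these shares, and CCAAT was searched after the sequences were seen.

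Of 21 measured cell cycle brakes and p53 targets, 8 were higher and 4 lower (6 and 5 under the RPKM totals), shares of 38.1% and 19.05% beside 20.9% and 21.1% of all genes tested. Cdkn1a, which encodes p21, had 378, 176 and 385 CPM in TNF libraries and 58.2, 55.7 and 53.9 CPM in IL1b libraries, and Mdm2, the p53 ubiquitin ligase, had 1163, 1127 and 1136 CPM in TNF libraries and 163, 139 and 171 CPM in IL1b libraries. Sesn1 and Cdkn2c, which encodes p18, were lower (-3.53 ± 0.20 and -2.85 ± 0.26).

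Markers of other blood cells moved on the same side as the cell cycle genes. Of 10 measured neutrophil and granulocyte precursor markers, 0 were higher and 7 lower, with a summed level of 11 to 15 CPM in TNF libraries and 86.1 to 101.5 CPM in IL1b libraries. Ltf, a granule protein, had 0.556, 0.263 and 0 CPM in TNF libraries and 10.8, 13.98 and 15.7 CPM in IL1b libraries, and Elane had 0 counts in TNF libraries, at least 26.2-fold lower. Ighm, the immunoglobulin M heavy chain of B cells, had 7.11, 11.7 and 9.105 CPM in TNF libraries and 474, 458 and 446 CPM in IL1b libraries, and Cd79b was also lower (-2.19 ± 0.54), while the B cell markers Cd79a, Ms4a1 and Pax5 had 0 counts in both groups. Of the natural killer cell list, Klrk1 was lower, with 21.6, 19.98 and 18.1 CPM in TNF libraries and 71.9, 62.8 and 70.6 CPM in IL1b libraries, while Ncr1, Klrb1c, Gzma and Prf1 had 0 counts in both groups. Their part in the cell cycle difference was not tested. The macrophage markers summed to 24057 to 24881 CPM in TNF libraries and 18455 to 20012 CPM in IL1b libraries, with 3 of 13 higher and 6 lower, and Cd14 gave 5321 ± 481 CPM of that sum with TNF and 151 ± 7.400 CPM with IL1b (SD, n = 3 each). The T cell, fibroblast and mast cell lists had no called member and Cd3e, Cd3d and Cd3g had 0 counts. Of the dendritic cell list Itgax and Ccr7 were higher and Clec9a lower, of the endothelial list Kdr was higher and Pecam1 lower, and no erythroid marker passed the filter on low counts.

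**Figure D3:**
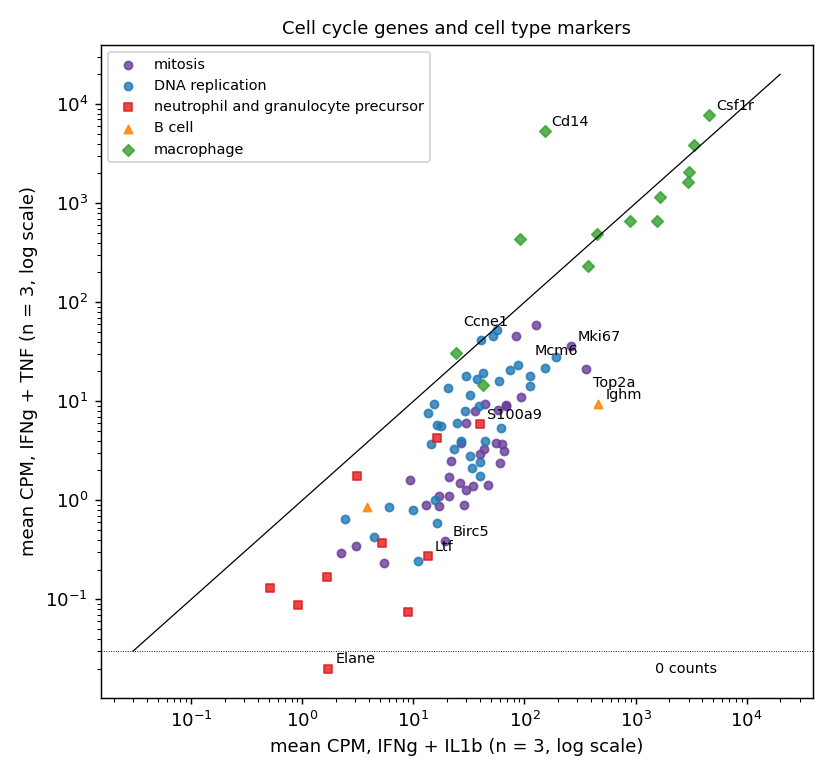
Mean CPM in IFNg with TNF libraries (vertical axis) against mean CPM in IFNg with IL1b libraries (horizontal axis), both on log scales with n = 3 each, for measured members of the mitosis, DNA replication, granulocyte, B cell and macrophage lists. The line marks equal levels, and the point below the dotted line, Elane, had 0 counts with TNF. Cell cycle genes and granulocyte and B cell markers lie near or below the line, while macrophage markers lie on both sides of it.

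Among inflammasome and cell death genes, 10 of 28 measured were higher and 4 lower (7 and 6 under the RPKM totals). Mefv, which encodes pyrin, had 75.1, 60.1 and 56.5 CPM in TNF libraries and 8.82, 7.79 and 7.93 CPM in IL1b libraries, Ninj1, which ruptures the membrane in lytic death, rose with a log2 fold change of 2.56 ± 0.27, and Nlrp3 had 701, 639 and 644 CPM in TNF libraries and 136, 126 and 136 CPM in IL1b libraries. Pycard, the adaptor ASC that links such sensors to caspase-1, was lower, with 31.7, 22.5 and 34.3 CPM in TNF libraries and 165, 139.6 and 112 CPM in IL1b libraries, and Casp1 did not pass the test (0.15 ± 0.12, adjusted p = 0.31).

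Proteases and their inhibitors were 13 higher and 6 lower of 29 measured (12 and 11 under the RPKM totals). The lower share, 20.7%, was near the 21.1% of all genes tested. Slpi, the secretory leukocyte protease inhibitor, had 132, 80.7 and 111 CPM in TNF libraries and 0.986, 1.34 and 1.01 CPM in IL1b libraries, and Mmp14, a membrane metalloproteinase, had 288, 226 and 285 CPM in TNF libraries and 5.59, 4.98 and 9.56 CPM in IL1b libraries. Plaur, the urokinase receptor, rose with a log2 fold change of 3.97 ± 0.17 while Plau, urokinase itself, was lower, with 42.01, 51.3 and 29.3 CPM in TNF libraries and 124, 132 and 107 CPM in IL1b libraries.

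Of 24 measured unfolded protein response and integrated stress response genes, 7 were higher and 11 lower. Ppp1r15a, the phosphatase subunit GADD34 induced by Atf4, had 194, 167 and 153 CPM in TNF libraries and 22.2, 24.97 and 27.98 CPM in IL1b libraries, and Trib3, Sesn2 and Atf3 rose with log2 fold changes of 2.15 ± 0.26, 1.15 ± 0.21 and 1.02 ± 0.13. The endoplasmic reticulum chaperone Hspa5 had 949.6, 1123 and 906 CPM in TNF libraries and 1978, 2008 and 1875 CPM in IL1b libraries, and Sdf2l1, Herpud1 and Pdia4 had log2 fold changes of -2.27 ± 0.34, -1.66 ± 0.18 and -1.40 ± 0.13. Among AP-1 and Egr factors and MAP kinase phosphatases, 17 of 25 were higher and 2 lower, with a median of 1.45. Dusp1 had 237, 237 and 249 CPM in TNF libraries and 25.4, 18.9 and 24.6 CPM in IL1b libraries, Dusp5 rose with a log2 fold change of 5.16 ± 0.70 and Fosl2 of 4.12 ± 0.27, and Klf2 and Dusp10 were the lower members (-1.27 ± 0.23 and -1.19 ± 0.24). Of 11 metallothionein and zinc transport genes 7 were higher and 3 lower, with Mt2 at 138, 68.8 and 97.3 CPM in TNF libraries and 4.71, 4.02 and 5.83 CPM in IL1b libraries.

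**Figure D4:**
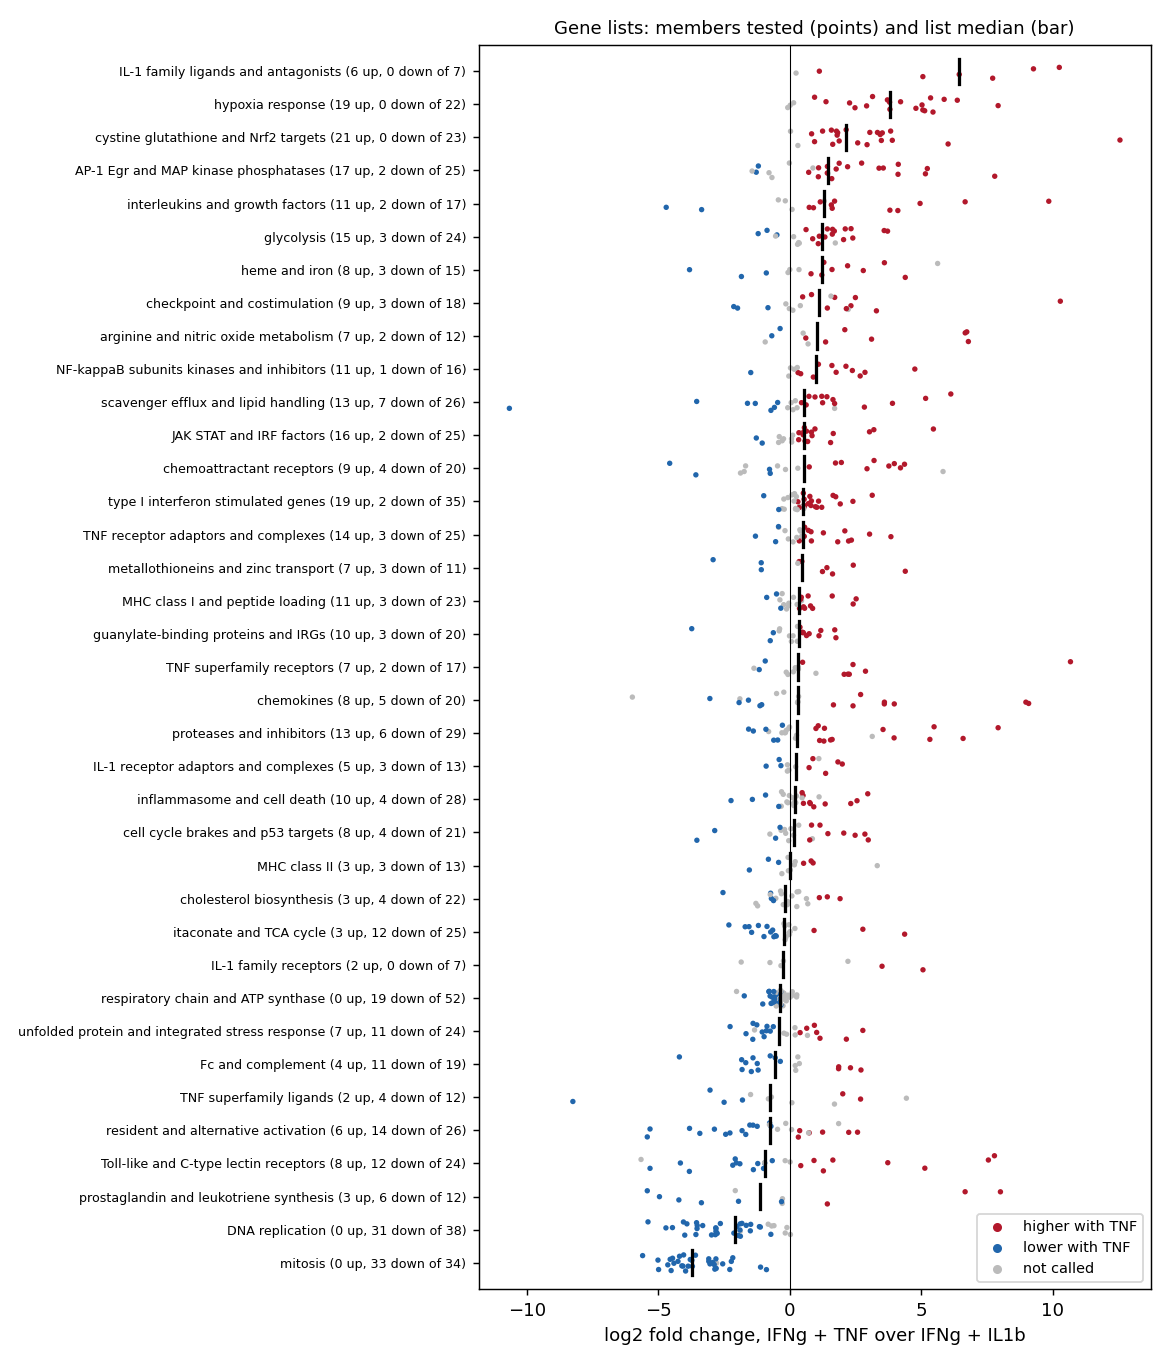
Log2 fold change of IFNg with TNF over IFNg with IL1b (horizontal axis) for the measured members of the gene lists (vertical axis), sorted by their medians, which are the black bars. Red points were higher with TNF, blue points lower and grey points not called, and each label gives the counts. The IL-1 ligands, hypoxia and Nrf2 lists lie at the top with medians of 6.44, 3.80 and 2.14, and mitosis and DNA replication at the bottom with -3.71 and -2.07.

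The genes called for IL1b relative to IFNg were few, and most of them were higher with TNF than with IL1b. Against IFNg, 35 genes (0.303%) were called with IL1b, 31 higher (0.268%) and 4 lower (0.0346%), and 5174 (44.7%) with TNF. These comparisons share the IFNg libraries, so their values are given side by side and no overlap is drawn from them. Il23r, the IL-23 receptor, had 30.3, 32.1 and 22.5 CPM in TNF libraries and 0.876, 0.255 and 0.544 CPM in IL1b libraries, against 0 counts with IFNg. Nos2 was 2.99 ± 0.23 above IFNg on the log2 scale with IL1b (adjusted p = 3.42e-07) and 9.66 ± 0.30 with TNF. Gpr84, a receptor for medium-chain fatty acids, had 111, 110.4 and 97.4 CPM in TNF libraries and 6.900, 8.49 and 7.77 CPM in IL1b libraries, against 1.04, 2.59 and 0.82 CPM with IFNg, and Fpr2 had 253, 182 and 257 CPM in TNF libraries and 9.200, 9.19 and 15.5 CPM in IL1b libraries, against 2.35, 1.71 and 3.08 CPM with IFNg. For each of these genes the IL1b libraries lay between the other groups. Clec4d was 1.90 ± 0.14 above IFNg with IL1b and 5.63 ± 0.16 with TNF.

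Between TNF and IL1b, 29 of the 35 were higher with TNF and 3 lower, and 3 were not called. The 35 genes were chosen by their values in the same IL1b libraries, so nothing more is read from these counts. The genes not called were Asns, asparagine synthetase (46.5, 63.03 and 69.4 CPM in TNF libraries, 47.2, 57.7 and 49.97 CPM in IL1b libraries and 26.8, 22.6 and 19.5 CPM with IFNg), Rgs1, a regulator of G protein signalling, and Ms4a7, a macrophage membrane protein (log2 fold changes of 0.23 ± 0.16 and -0.15 ± 0.13 between TNF and IL1b). For Lpl, lipoprotein lipase, the values relative to IFNg had opposite signs, with 1443, 1549 and 1485 CPM in TNF libraries and 3455, 3801 and 3854 CPM in IL1b libraries, against 2552, 2525 and 2794 CPM with IFNg. Thbs1, thrombospondin 1, and Pde3b, a cyclic nucleotide phosphodiesterase, had the opposite pattern, with 1923, 2869 and 2863 CPM of Thbs1 in TNF libraries and 47.9, 54.98 and 47.3 CPM in IL1b libraries, against 71.2, 89.5 and 83.5 CPM with IFNg. Ramp1, a chain of the calcitonin gene-related peptide receptor, had 0 counts in TNF libraries and 5.26, 2.11 and 2.95 CPM in IL1b libraries, against 16.6, 12.5 and 11.8 CPM with IFNg.

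**Figure D5:**
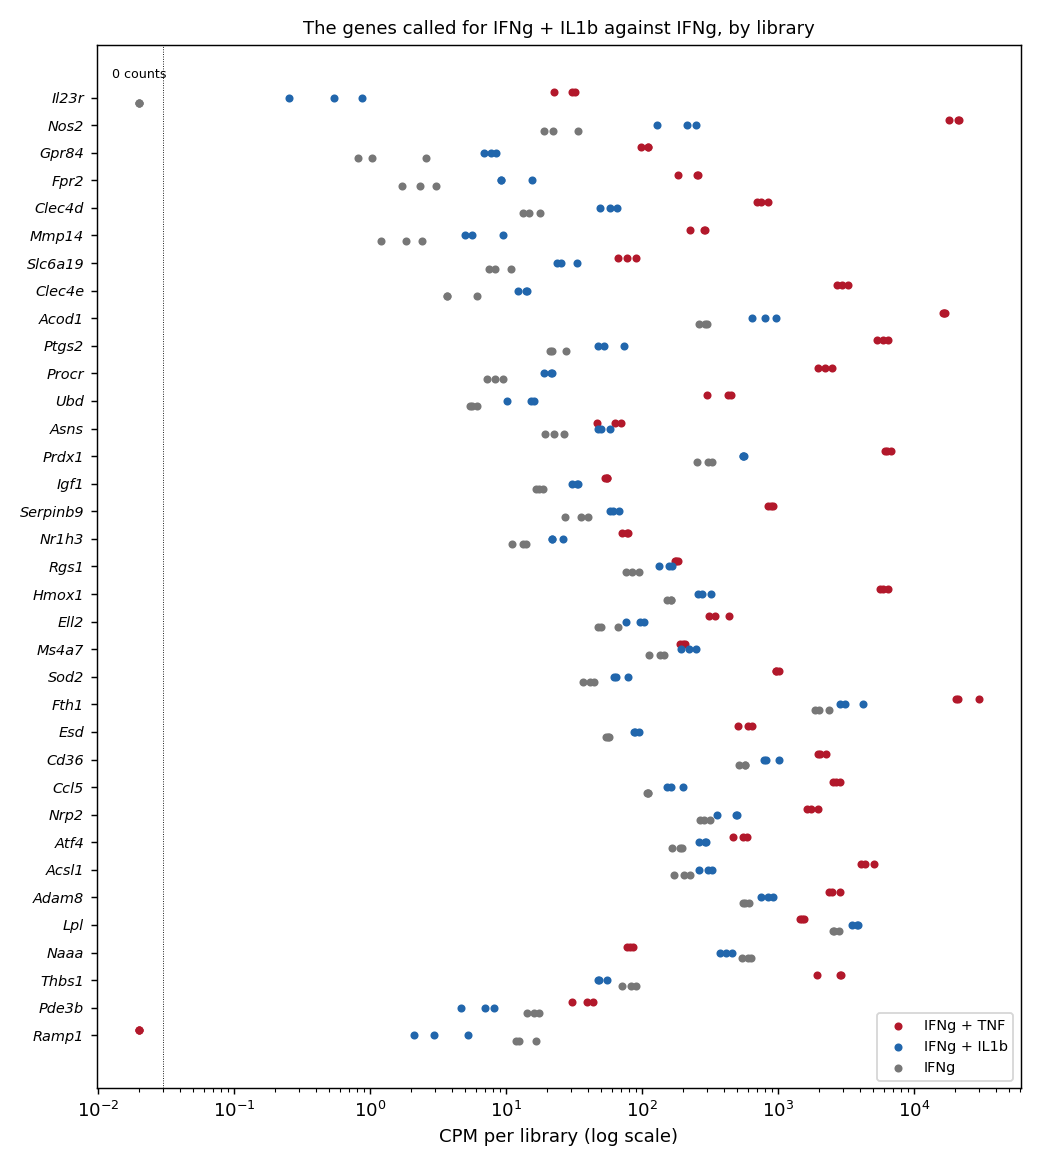
CPM per library on a log scale (horizontal axis) for the 35 genes called for IFNg with IL1b against IFNg (vertical axis, sorted by that log2 fold change), with 3 points a group for IFNg with TNF (red), IFNg with IL1b (blue) and IFNg (grey). Points left of the dotted line had 0 counts. Red points lie to the right of blue ones for most genes, while Lpl, Naaa and Ramp1 show the reverse.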

How the data were processed

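RNA was sequenced from 18 libraries of mouse bone-marrow-derived macrophages, 3 per group. Libraries were made with a stranded mRNA kit and read as single-end reads, per the labels' protocols, and aligned with GSNAP to mm10, per the submitters' processing notes. The authors deposited a count of reads, a width and an RPKM value (reads per gene width and library total) for each gene. The sources used here do not give the counter, its annotation or its use of strand, so overlapping or near-identical genes could share reads, and some genes that every cell uses, such as Gapdh, are close to 0 in the table. Of the deposited widths, 86.7% were multiples of 3, so the counts are taken to cover coding parts. Gene identifiers were matched to symbols and mm10 positions through GENCODE M21 (22457 of 22598).

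Counts were tested with edgeR 4.0.16 (R 4.3.3), glmQLFit with robust estimation and glmQLFTest, after TMM scaling and filterByExpr at its defaults, with all 18 libraries in 1 model that has a mean for each group. P-values were adjusted by Benjamini-Hochberg over 11563 genes, with 0.05 as the threshold. Log2 fold changes are IFNg with TNF over IFNg with IL1b, with the SE after ±. RPKM values served only to give library totals for an alternative scaling. DESeq2 1.42.0, other scalings, no filter, the 6 libraries alone, the title number as a block and omission of each library were the other alternatives. A fold written "at least" sets 3 counts over the group in place of 0. Intervals and floors cover counting error only.

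The members, gene lists and rule for named genes were chosen with earlier results of these data known. The rule named the 12 largest non-overlapping changes in each direction with at least 10 CPM in the higher group, TNF and IL-1 ligands and receptors, Nos2, up to 3 called genes per direction and list with called members against the list's majority, and the 6 largest changes with IL1b against IFNg. Another 59 genes were named after their values were seen. Promoters came from RefSeq's table on GRCm38.p6, which held 9181 of the genes tested. Some genes that the rule named are not reported here.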

Additional observations from a re-analysis of the deposited data

How the results depend on the processing

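The counts of 2418 genes higher and 2442 lower with TNF moved most under the library totals behind the RPKM values, to 1521 and 3938. Under the other scalings, DESeq2's test, no filter and the 6 libraries alone they ran from 2008 to 2574 higher and from 2369 to 3005 lower. Leaving out 1 library gave 2096 to 2273 higher and 2127 to 2324 lower. No alternative called a gene in the direction opposite to its call under TMM. The replicate block gave 2491 higher and 2513 lower genes over all libraries and 2677 and 2640 over the 6 libraries. Deviations from the group means correlated between same-numbered libraries by 0.16, 0.05 and 0.12, each highest for its own number. The labels do not say what the numbers mark, and the numbers were not taken as pairs. Of 284 named genes called, 249 kept their call under every alternative with a value, and 27 of 74 list counts moved by over 1.5 times under at least 1. Under the RPKM totals the log2 fold change of Nfkb1 was -0.011, and Tkt (-0.30) and H2-Eb1 (-0.31), not called under TMM, were called lower. Why these calls depend on scaling was not tested. Depth limits genes of few counts, where calls with 0 counts in one group rest on the other group alone.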

Other observations

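Some gene families outside the lists above also lay mostly on one side. They were picked after their values were seen, so their counts are descriptions beside the 20.9% higher and 21.1% lower of all genes tested. Counts under the RPKM totals stand beside 1521 higher and 3938 lower of 11563 genes. Of 8 measured nucleolar Nop proteins, which process and modify ribosomal RNA, 0 were higher and 8 lower with TNF, with a median log2 fold change of -0.98, and the same counts held under the RPKM totals. Subunits of the RNA exosome, which trims and degrades RNA, were lower in 5 of 9 with 0 higher (7 and 0 under the RPKM totals). RNA polymerase subunits were 1 higher and 10 lower of 27 (0 and 17 under the RPKM totals), small mitochondrial ribosomal proteins 0 higher and 9 lower of 28 (0 and 17), and nucleoporins 4 higher and 12 lower of 19 (0 and 13 under the RPKM totals).

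On the other side, 8 of 15 measured phosphodiesterases, which degrade cyclic nucleotides, were higher with TNF and 0 lower (5 and 0 under the RPKM totals), and 5 of 9 semaphorins were higher and 0 lower (4 and 1 under the RPKM totals). Regulatory particle subunits of the proteasome (Psmd genes) were 10 higher and 0 lower of 14, with a median of 0.41, which the RPKM totals reduced to 3 higher and 1 lower. Autophagy Atg genes were 9 higher and 1 lower of 18 (4 and 2 under the RPKM totals). Histone lysine demethylases (Kdm genes) were 10 higher and 2 lower of 16 (7 and 3 under the RPKM totals).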
